A study of Homo sapiens with 12 samples.

Results

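The comparison asked what bezafibrate changed in ovarian cancer cells exposed to ascites, the fluid that collects in the abdomen of patients with this cancer. It set 3 libraries of CAOV3 cells given 200 uM bezafibrate together with 10% ovarian cancer ascites for 16 hours (the combination) against 3 libraries given 10% ascites and the solvent DMSO for 16 hours (ascites alone). These are 6 of the 12 libraries of the series, chosen by their titles and not by any measured value, and all genes that passed a count filter were examined. The other 6 libraries, 3 given DMSO (no time stated) and 3 given 200 uM bezafibrate for 16 hours without ascites, served to ask whether the drug acted alike without the fluid. All groups were grown in DMEM with 10% serum. CAOV3 is an established human line labelled as epithelial, high-grade serous and wild type. It is 1 line, and the labels do not say whether replicates were separate cultures or days, or how many patients gave ascites, so p-values measure only the spread between these libraries. The labels name DMSO for the libraries without bezafibrate and not for those with it, so a solvent effect and a drug effect cannot be told apart from the labels alone.

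Bezafibrate belongs to the fibrates, a lipid-lowering drug class, and binds PPAR alpha, delta and gamma. These nuclear receptors normally respond to fatty acids. Each pairs with an RXR receptor on DNA, usually at a direct repeat of the half-site AGGTCA spaced by a single base, and recruits coactivators. Classical targets take up, bind, store and burn fatty acids, and PDK4, which phosphorylates and slows pyruvate dehydrogenase, shifts fuel use from glucose to fat. Ascites is rich in lipids, growth factors and cytokines, and in ovarian cancer it bathes the tumour cells that spread through the abdomen.

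The libraries held between 11831093 (combination replicate 2) and 17120740 (combination replicate 1) counts, and the common biological coefficient of variation was 3.06%. On the first principal component of the 6 libraries, which held 44.9% of the variance, the combination lay at 14.02 to 20.3 and ascites alone at -17.4 to -15.7. Combination replicate 3 stood apart on the second component (18.1% of the variance), at 20.1 against -12.3 and -11.2 for the other 2 combination libraries. Its counts also differed most from its replicates, with a chi-square per degree of freedom of 4.45 and 3.15 against 2.27 between replicates 1 and 2. Results that rest on it are therefore given with and without it. Epithelial keratins fitted the label, with KRT8 at 3129 and KRT18 at 1838 CPM (counts scaled to a common library size by TMM) in ascites alone. Of 18 serous ovarian markers listed, these keratins among them, 11 passed the count filter. KRT7 (803 CPM), KRT19 (595), CLDN4 (124), MECOM (38.9), CD24 (37.7), EPCAM (30.8) and CDH1 (15.9) were also expressed in ascites alone. CLDN3 was at 2.83 CPM. Over the 3 ascites libraries, PAX8 had 20 counts, MSLN 12, ESR1 7, WT1 and MUC16 6 each, FOLR1 5, WFDC2 1 and SOX17 0. The serous part of the label is not borne out by these low genes, while other markers of the list were expressed. Leukocyte markers were at or near 0: 7 of 12, among them PTPRC, CD3E and MS4A1, had no count in the 6 libraries, and all 12 summed to between 2.36 and 5.01 CPM.

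Bezafibrate changed 2214 of the 12470 genes tested (17.8%; edgeR, adjusted p under 0.05). Of these, 1305 were higher in the combination (10.5% of genes tested) and 909 were lower (7.29%). Rises made up 58.9% of these calls, 49.3% under upper-quartile scaling (1126 higher, 1157 lower) and 49.96% with library totals only (1144 higher, 1146 lower). Most changes were small: 995 of the higher and 777 of the lower genes changed by less than 1.5-fold, while 31 rose and 3 fell by more than 4-fold. Against a minimum change of 1.5-fold, 164 genes passed (1.32%), 144 of them higher. The 2 groups did not overlap for 3805 genes (30.5%), among them 2113 of the 2214 genes called. Without combination replicate 3, 2118 genes were called, 1244 higher and 874 lower. Counts of calls in the gene lists below stand against the background share of 17.8%. Rises outnumbered falls at large fold changes, and the 4 largest rises among non-overlapping genes with at least 1 CPM were those of PDK4, FABP4, PLIN4 and ANGPTL4.

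**Figure D1:**
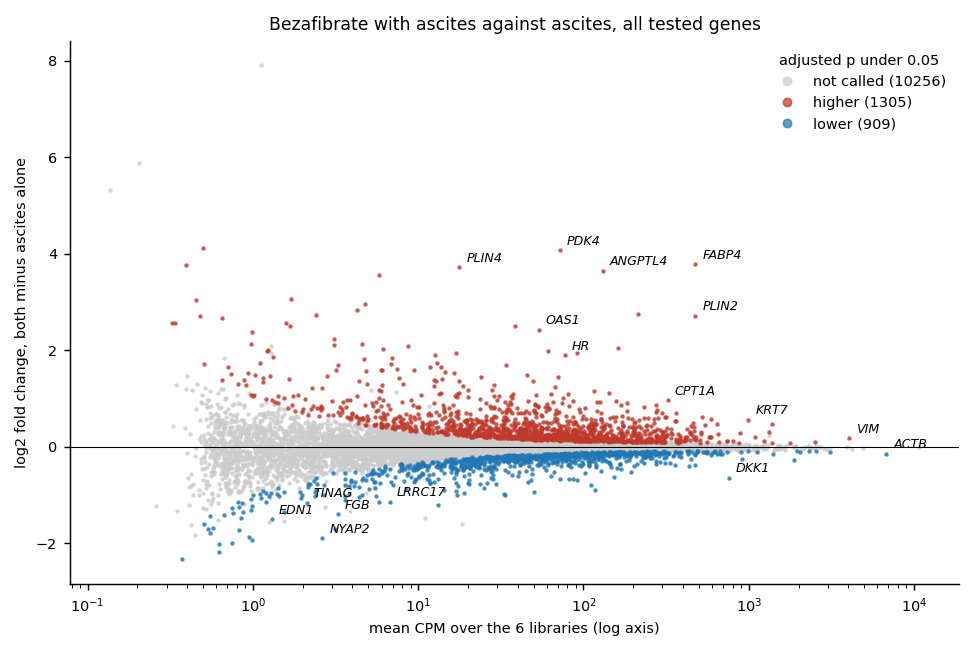
Each point is a tested gene: its mean CPM over the 6 libraries (log axis) against its log2 fold change, combination minus ascites alone, with the 1305 genes called higher in red and the 909 called lower in blue. PDK4, FABP4, PLIN4 and ANGPTL4 stand above 3.5 among well-counted genes, and most called genes lie close to the zero line.

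To show the DNA letters behind the receptor biology, the promoters of tested genes (250 bases before to 50 after the start, RefSeq, GRCh38.p14) were searched on both strands for 3 motifs. The table matched 14726 promoters of 10038 genes. The PPAR-type repeat was written as AGGTCA, any 1 base, AGGTCA, with at most 2 mismatches. The 4 matches below belong to lipid or metabolic genes that rose at least 2-fold, and they are shown with up to 30 flanking bases, 5′ to 3′ along the gene's strand, with the match in capitals. A match printed as the reverse complement lies on the opposite strand.
FABP1 (fatty acid carrier; chr2:88128088-88128160, minus strand; bases -68 to -56): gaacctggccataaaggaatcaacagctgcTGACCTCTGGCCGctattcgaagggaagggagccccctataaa
ACSL1 (fatty acid activation, promoter 3 of the gene; chr4:184805625-184805697, minus strand; bases -114 to -102): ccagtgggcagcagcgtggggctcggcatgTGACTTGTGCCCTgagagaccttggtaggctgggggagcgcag
AQP7 (glycerol channel; chr9:33402669-33402741, minus strand; bases -143 to -131): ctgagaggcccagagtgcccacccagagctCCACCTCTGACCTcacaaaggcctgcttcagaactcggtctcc
CREB3L3 (a membrane-bound transcription factor of lipid metabolism; chr19:4153381-4153451, plus strand; bases -222 to -210): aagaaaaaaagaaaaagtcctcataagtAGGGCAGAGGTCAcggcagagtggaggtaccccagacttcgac
CREB3L3 differed from the repeat by 1 base and the other 3 by 2. Besides these 4 genes, FAM151A, OAS3 and RAB30 also rose at least 2-fold and held the repeat, each with 2 mismatches. The repeat was found in 7 of 129 promoters of genes that rose at least 2-fold (5.43%), in 57 of 1632 promoters of all genes called higher (3.49%), in 16 of 1185 promoters of genes called lower (1.35%) and in 339 of all 14726 (2.30%). Among lists of classical PPAR targets, it was found in 0 of 20 promoters of peroxisomal genes and 1 of 25 promoters of mitochondrial fatty acid oxidation genes. None of the printed matches overlaps a match to another of the 3 motifs. Such a match is a description of the letters, since receptor binding was not measured here. PPAR sites often lie outside this window, and the FABP4 promoter was not searched.

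A second motif, the interferon-type pair GAAA, any 2 bases, GAAA with no mismatch, was searched because several antiviral genes rose. It was present in 2.72% of all promoters, in 3.19% of those of all genes called higher, in 3.38% of those of genes called lower, in 6.20% of those of genes that rose at least 2-fold, and in 10 of 14 promoters of the interferon list. Examples are a rising gene of that list and the falling gene of that list, with the match in capitals.
OAS3 (2-5A synthetase; chr12:112938301-112938370, plus strand; bases -143 to -134): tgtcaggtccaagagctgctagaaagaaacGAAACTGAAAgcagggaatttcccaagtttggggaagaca
IFIT5 (antiviral RNA-binding protein; chr10:89414493-89414562, plus strand; bases -45 to -36): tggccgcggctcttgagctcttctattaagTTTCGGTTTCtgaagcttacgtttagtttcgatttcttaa
Both carry the motif although OAS3 rose and IFIT5 fell. The sterol regulatory letters TCACCCCAC, with at most 1 mismatch, were in 10.5% of all promoters and in 5 of 27 promoters of sterol genes (18.5%). The OAS3 promoter also held a match to these letters (bases -79 to -71) and a match to the PPAR-type repeat (bases -58 to -46).

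The receptors themselves moved little. PPARG, the receptor of fat cell formation, stood at 91.8, 90.9 and 92.1 CPM in ascites alone and 70.7, 69.8 and 72.3 CPM in the combination. The groups did not overlap and it fell (log2 fold change -0.37, SE 0.047, edgeR adjusted p 7.6e-08). PPARD, the broadly expressed form, stood at 10.8, 10.1 and 8.69 CPM in ascites alone and 14.4, 12.6 and 13.7 CPM in the combination, also without overlap, and rose (log2 fold change 0.47, SE 0.11, edgeR adjusted p 0.0011). PPARA, the fibrate receptor of liver, stood at 5.91, 5.07 and 4.65 and 6.22, 5.52 and 6.25 CPM. Those values overlapped, and its log2 fold change of 0.21 did not pass (95% interval -0.09 to 0.50, edgeR adjusted p 0.41). The partners RXRA (log2 fold change 0.03, edgeR adjusted p 0.8) and RXRB (0.04, edgeR adjusted p 0.8) did not pass either. Of 16 receptors, partners and coregulators tested, 4 rose and 1 fell, a share of 31.25% against the background of 17.8%. The risers included the corepressor NCOR1 (log2 fold change 0.29, SE 0.034, edgeR adjusted p 1.3e-08). The call for the coactivator PPARGC1B (log2 fold change 0.18) was lost without combination replicate 3 and in 4 of the other 5 fits that left out 1 library.

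PDK4 rose most among genes with at least 1 CPM on average and no overlap. It lies on chr7:95583499-95596516 (GRCh38, RefSeq), and its counts gave 8.05, 7.34 and 8.69 CPM in ascites alone and 128, 132 and 147 CPM in the combination. The lowest combination library was far above the highest ascites library, and the rise was 16.8-fold (log2 fold change 4.07, SE 0.069, edgeR adjusted p 1.0e-33). Its relatives rose less, PDK1 from 27.8 to 38.5 CPM and PDK3 from 29.8 to 37.4 CPM, and MPC2, a subunit of the mitochondrial pyruvate carrier, from 40.5 to 46.5 CPM. PDK2 and the complex itself did not pass, with PDHA1, the catalytic E1 alpha subunit, at a log2 fold change of 0.05. In all, 4 of 13 genes of the pyruvate dehydrogenase list rose and none fell (4 and 1 without combination replicate 3). Their median was 0.08, against -0.0037 over all genes tested.

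**Figure D2:**
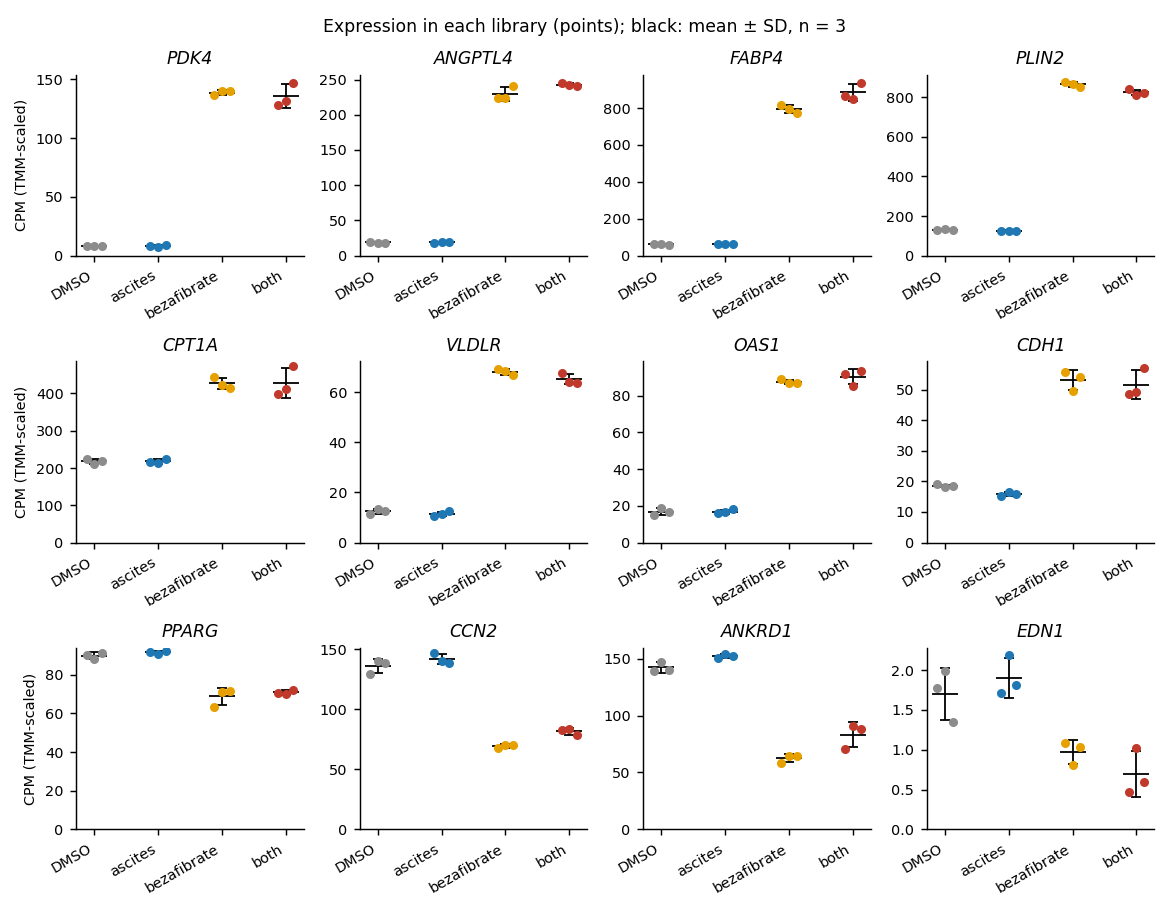
CPM of 12 genes in each of the 12 libraries (points), by group, with black bars for the mean ± SD of 3 libraries; axes start at 0. PDK4, ANGPTL4, FABP4, PLIN2, CPT1A, VLDLR, OAS1 and CDH1 stand higher in both drug groups, PPARG, CCN2, ANKRD1 and EDN1 lower, although EDN1 was not called without ascites.

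Fatty acid carriers, transporters and activating enzymes had the highest list median, 0.46, with 10 of 15 genes higher and none lower. FABP4, a lipid chaperone best known from fat cells and macrophages, gave 64.3, 63.5 and 65.2 CPM in ascites alone and 867, 849.7 and 938 CPM in the combination, a 13.8-fold rise (log2 fold change 3.78, SE 0.039, edgeR adjusted p 6.5e-41). It also gained the most CPM of any called gene. FABP3, the heart form, rose from 24.5 to 96.9 CPM, and FABP1, the liver form, from 3.66 to 11.2 CPM. FABP5, the epidermal form, rose least in fold among the 4 called FABP members, from 409 to 632 CPM. The acyl-CoA synthetases, which activate fatty acids for use, rose unevenly: ACSL1 from 6.91 to 17.9 CPM, ACSL5 from 16.9 to 40.8 CPM, and ACSL3 from 172 to 228 CPM, while ACSL4 did not pass (log2 fold change 0.14, edgeR adjusted p 0.056).

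Lipid droplets, the stores of neutral fat, were represented by 10 tested genes, of which 6 rose and none fell (median 0.23). Without combination replicate 3, 5 rose and none fell. PLIN2, the droplet coat protein of most cells, gave 126, 127 and 123 CPM in ascites alone and 839, 812 and 819 CPM in the combination, 6.58-fold higher (log2 fold change 2.72, SE 0.031, edgeR adjusted p 1.4e-39). PLIN4 gave 3.49, 1.72 and 2.22 and 33.6, 33.6 and 31.8 CPM in the 2 groups, 13.2-fold higher (log2 fold change 3.72, SE 0.12, edgeR adjusted p 4.0e-24). Neither gene's groups overlapped. CIDEC, which helps droplets fuse, rose from 3.16 to 10.5 CPM, and FITM2, which helps them form, from 23.4 to 30.9 CPM. The lipase PNPLA2, which opens droplets, stood at 41.2 and 42.1 CPM (edgeR adjusted p 0.76).

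Secreted and surface regulators of lipid uptake rose in 5 of 7 tested genes (median 0.35). ANGPTL4, a secreted inhibitor of lipoprotein lipase, lies on chr19:8364155-8374370 and gave 18.4, 19.8 and 19.7 CPM in ascites alone and 246, 242 and 240.4 CPM in the combination. These groups were widely apart and tight within, and the rise was 12.6-fold (log2 fold change 3.65, SE 0.05, edgeR adjusted p 7.5e-37). VLDLR, a receptor for triglyceride-rich particles, rose from 11.4 to 65.2 CPM (log2 fold change 2.51, SE 0.069, edgeR adjusted p 1.2e-26). LRP1 and the lipase LIPG rose by less than 1.5-fold. Of the triglyceride and glycerol list, 8 of 19 rose and none fell (median 0.15). The largest were the glycerol channels AQP7, from 1.199 to 5.03 CPM, and AQP3, from 6.97 to 27.02 CPM, followed by AGPAT2, an acyltransferase of triglyceride synthesis, and MGLL, which cleaves monoglycerides.

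Mitochondrial fatty acid oxidation genes were called at many steps of the pathway, most with folds under 2. Of 24 genes tested, 14 rose and 1 fell, with a median of 0.20, and without combination replicate 3 the counts were 14 and 0. CPT1A, the rate-setting enzyme of fatty acid entry into mitochondria, gave 215, 214 and 225 CPM in ascites alone and 399, 411 and 473 CPM in the combination, without overlap (log2 fold change 0.97, SE 0.053, edgeR adjusted p 6.5e-10). SLC25A20, the carnitine carrier that follows it, rose from 11.2 to 26.3 CPM, and CPT2, the next step, from 24.8 to 28.9 CPM. The call for CPT2 was lost without ascites replicate 2 and without combination replicate 2.

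Within the oxidation spiral, ACADVL rose from 459 to 627 CPM, HADHA from 475 to 709 CPM, HADHB from 175 to 259 CPM and ACAA2 from 134 to 208 CPM. ETFDH and ETFA, which pass the electrons on, rose from 17.3 to 30.01 CPM and from 224 to 341 CPM. CPT1C, a brain isoform, was the 1 member called lower, from 1.83 to 0.984 CPM, and that call was lost without combination replicate 3 (edgeR adjusted p 0.139) and in 3 of the other 5 fits without 1 library. Of the respiratory chain that receives the electrons, 2 of 39 nuclear-encoded subunits rose (UQCRC2 and COX7A2) and none fell, a share under the background, and the median was 0.001. The COX7A2 call was lost without ascites replicate 1 or 3 and without combination replicate 1 or 2, and the UQCRC2 call without ascites replicate 1 or 3 and without combination replicate 3. Under upper-quartile scaling 0 rose and 1 fell.

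In peroxisomes, which shorten very long fatty acids, 7 of 24 genes rose and none fell (median 0.20), a share of 29.2% against the background of 17.8%. CAT, which breaks down hydrogen peroxide, gave 77.4, 77.8 and 76.8 and 122, 114 and 125 CPM in the 2 groups, without overlap (log2 fold change 0.64, SE 0.044, edgeR adjusted p 1.8e-14). HSD17B4 and ACAA1, later steps of peroxisomal oxidation, rose from 119 to 183 CPM and from 72.9 to 100.3 CPM. ACAA1 shares 23.5% of its 50-base stretches with another gene, so its counts are less certain. EHHADH and PEX11A, textbook fibrate targets in rodent liver, had log2 fold changes of 0.23 and 0.42 and did not pass.

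The list of ketone body synthesis, use and transport had a median of 0.01 over 8 tested genes, and ACAT1, a thiolase, did not pass (log2 fold change 0.02). Among the thioesterases, which release free fatty acids, 2 of 7 rose, ACOT11 and THEM4, a share of 28.6% against the background of 17.8%. ACOT11 shares 10.9% of its 50-base stretches with other genes, mainly FAM151A.

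Of 11 fatty acid synthesis genes, 1 rose (SLC25A1) and 2 fell (SREBF1 and MID1IP1), a share of 27.3% against the background of 17.8%, with a median of 0.05. Without combination replicate 3, 1 rose and 1 fell. SREBF1, the master regulator of this pathway, fell from 137 to 119.9 CPM (log2 fold change -0.19, SE 0.043, edgeR adjusted p 0.0011), while FASN (log2 fold change -0.10) and ACACA (0.08) did not pass. The calls for SLC25A1 and MID1IP1 were each lost in at least 3 of the 6 fits without 1 library. Desaturases and elongases rose in 5 of 15 with none lower, among them SCD from 1180 to 1458 CPM and ELOVL6 from 168 to 237 CPM. Without combination replicate 3, 5 rose and 1 fell.

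Sterol synthesis and uptake rose in 11 of 27 genes and fell in 1, with a median of 0.08. FDFT1, which commits the pathway to squalene, rose from 107 to 153 CPM, and INSIG1, which holds SREBP in the endoplasmic reticulum, from 33.2 to 46.9 CPM. HMGCS1, the early synthase of the pathway, fell from 342 to 307 CPM. Targets of the sterol receptor LXR rose in 5 of 12: the receptor NR1H3 itself from 11 to 23.4 CPM, ABCG1 from 6.101 to 12.01 CPM, ABCA1 from 19.4 to 35.2 CPM, LPCAT3 from 86.1 to 164 CPM and APOC1. SREBF1, also an LXR target, was the exception that fell. LPCAT3 shares 52.7% of its 50-base stretches, mainly with EMG1.

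Other nuclear receptors and their partners moved in both directions, 7 of 25 higher and 5 lower. HR, a corepressor and histone demethylase, gave 32.9, 31.4 and 33.5 CPM in ascites alone and 129.9, 122 and 114 CPM in the combination (log2 fold change 1.90, SE 0.053, edgeR adjusted p 2.0e-26), with no overlap. RARB, a retinoic acid receptor, fell from 11.8 to 7.19 CPM, and NR0B2 and NR5A2, which act in bile acid control, fell from 7.69 to 5.19 CPM and from 20 to 13.8 CPM. Of 12 tested cytochrome P450 genes, CYP2B6 from 196 to 297 CPM and CYP1A1 from 5.99 to 8.12 CPM rose, a share of 16.7% that is near the background of 17.8%. The CYP1A1 call was lost without combination replicate 3 (edgeR adjusted p 0.0756) and without either of 2 ascites libraries. SLC25A42, the mitochondrial coenzyme A carrier, rose from 7.64 to 20.1 CPM.

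Outside lipid metabolism, epithelial and adhesion genes changed. CDH1, the epithelial cadherin, lies on chr16:68737292-68835537 and gave 15.3, 16.4 and 16.02 CPM in ascites alone and 48.6, 49.3 and 57.2 CPM in the combination, 3.24-fold higher without overlap (log2 fold change 1.69, SE 0.073, edgeR adjusted p 2.3e-20). CLDN4, a tight junction protein, rose from 124 to 191 CPM, while CLDN7 fell from 21.97 to 16.4 CPM. The mesenchymal factors ZEB2 and SNAI2 also rose, from 2.499 to 4.903 CPM and from 6.38 to 9.195 CPM, as did VIM, from 3803 to 4300 CPM. Of this list, 6 of 15 rose and 2 fell, so epithelial and mesenchymal genes both stand among the risers.

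Matrix and integrin genes had the highest share of calls of any list with over 10 tested genes, 15 of 25 higher and 4 lower (median 0.18). The laminin receptors ITGA6 and ITGA3 rose from 194 to 353 CPM and from 227 to 367 CPM, the laminin chain LAMA3 from 20.8 to 36.4 CPM, and the collagen COL6A2 from 11.5 to 21.01 CPM. FN1, the fibronectin gene, fell from 183 to 135 CPM, and COL3A1 and COL1A1 fell from 5.06 to 2.55 CPM and from 5.66 to 3.46 CPM. Fibroblast markers moved beside these: 4 of 8 were tested and all 4 were lower, COL1A1, COL3A1, LUM and PDGFRA. The call for LUM (log2 fold change -0.13) was lost without ascites replicate 1 and without combination replicate 2. The 8 summed to 229 to 236 CPM in ascites alone and 184 to 199 CPM in the combination, of which LUM made up 178 and 162 CPM on average. FAP had no count and DCN had 1 in each group. COL1A2 had 0 counts in ascites alone and 1 in the combination, and PDGFRB had 8 and 11. The part of these markers in the matrix result was not tested. The labels name only the CAOV3 line, and the presence of other cells was not tested. In such bulk libraries, fewer cells of a type and less RNA per cell cannot be told apart.

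YAP and TEAD targets, genes switched on by stretched or spread cells, were the most one-sided list in the lower direction, with 9 of 14 lower and none higher (median -0.20). CCN2, a matricellular growth factor, gave 147, 140.4 and 139 CPM in ascites alone and 82.7, 83.3 and 78.5 CPM in the combination (log2 fold change -0.80, SE 0.042, edgeR adjusted p 1.4e-17). ANKRD1 gave 150.4, 154 and 153 and 71.03, 90.5 and 88.3 CPM in the 2 groups (log2 fold change -0.88, SE 0.066, edgeR adjusted p 1.0e-08). In both genes the highest combination library lay below the lowest ascites library. F3, the tissue factor that starts clotting, fell from 18.6 to 10.01 CPM, and CCN1 from 106 to 81.9 CPM. The call for AJUBA (log2 fold change -0.11) was lost in 4 of 6 fits without 1 library. Cytoskeletal actins, ACTB and ACTG1, were among the genes that lost most CPM, ACTB from 7105 to 6424 CPM (log2 fold change -0.15, SE 0.029, edgeR adjusted p 4.7e-04). IGF2, a growth factor, also lost much CPM, but 87.1% of its 50-base stretches also occur in a second annotation entry of the same symbol, so its value depends on how reads were divided.

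TGF-beta genes divided evenly, 5 of 20 higher and 5 lower, a share of 50% against the background of 17.8%. The ligands TGFB2 and TGFB3 fell, TGFB2 from 59.1 to 36.8 CPM, while LTBP1, which stores latent ligand, rose from 42.1 to 78.6 CPM. Immediate-early and MAPK feedback genes were also mixed, 9 of 30 higher and 4 lower. JUN rose from 35.9 to 65.5 CPM, the EGFR ligands AREG and EREG from 13.3 to 20.7 CPM and from 73.3 to 105 CPM, while the feedback inhibitor SPRY1 fell from 48.1 to 31.6 CPM. DKK1, a secreted Wnt inhibitor, fell from 921 to 593 CPM (log2 fold change -0.63, SE 0.027, edgeR adjusted p 1.1e-20).

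Among 21 interferon-stimulated genes, 5 rose and 1 fell, with a median of 0.03. OAS1, which senses double-stranded RNA, lies on chr12:112906962-112933219 and gave 16.02, 16.4 and 17.98 CPM in ascites alone and 91.9, 85.4 and 93.5 CPM in the combination, 5.37-fold higher (log2 fold change 2.42, SE 0.064, edgeR adjusted p 2.7e-27). OAS3 rose from 71.3 to 159.6 CPM, OASL from 1.57 to 3.69 CPM, and the transcription factor IRF1 from 18.6 to 38.5 CPM. ISG15 was called (log2 fold change 0.24, SE 0.085, edgeR adjusted p 0.048), but lost that call in 5 of the 6 fits without 1 library, the exception being the fit without combination replicate 3, and under every other scaling. IFIT5 fell from 15.9 to 12.1 CPM, a call that was lost without combination replicate 2. IFIT1 (log2 fold change -0.62) and IFIT3 (0.21) did not pass. The list median turned negative without ascites replicate 3 (-0.0276) and without combination replicate 2 (-0.00315).

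Cytokine and stress genes showed few large changes. CSF2, the cytokine GM-CSF, gave 1.21, 1.17 and 0.741 CPM in ascites alone and 7.801, 7.64 and 6.84 CPM in the combination (log2 fold change 2.84, SE 0.2, edgeR adjusted p 5.1e-14). NFKBIZ, a nuclear regulator of NF-kB, fell from 22.1 to 11.8 CPM. In all, 4 of 18 genes of that list rose and 2 fell. ATF4 stress genes rose in 7 of 26 with none lower, the largest rise being that of CEBPB, from 45.01 to 62.3 CPM. That count was 2 without ascites replicate 1, 3 without ascites replicate 3 or combination replicate 1, and 4 with DESeq2. Without combination replicate 3, 5 rose and 1 fell, and under upper-quartile scaling 5 rose and 2 fell. Unfolded protein genes rose in 4 of 22, close to the background of 17.8%. Of NRF2 targets, 6 of 24 rose and 2 fell, led by AKR1C1, AKR1B10 and AKR1C2, aldo-keto reductases of which AKR1C1 and AKR1C2 share 29.3% and 47.0% of their 50-base stretches.

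Growth genes changed slightly. DNA replication genes fell in 8 of 38 and rose in 2, with a median of -0.08. The fallers included 5 subunits of the replicative helicase, MCM2, MCM3, MCM4, MCM5 and MCM7. The MCM7 call was lost without ascites replicate 2 and without combination replicate 1 or 2. MCM2 fell from 199.9 to 177 CPM and TK1, which makes thymidine nucleotides, from 117 to 99.9 CPM. E2F2 rose from 35.6 to 57.6 CPM. For mitosis, 2 of 29 fell and 1 rose (MYBL2, from 395 to 482 CPM), a share of 10.3% against the background of 17.8%. The number that fell was 4 without combination replicate 3, 3 without ascites replicate 2 or 3 or combination replicate 1, 5 with library totals only and 6 under upper-quartile scaling. MKI67 did not pass (log2 fold change 0.06). CDKN1A, the cyclin kinase inhibitor, rose from 11.2 to 24.03 CPM (log2 fold change 1.13, SE 0.099, edgeR adjusted p 2.4e-11), and SQSTM1, the autophagy receptor, from 276 to 448 CPM, though SQSTM1 shares 28.5% of its 50-base stretches. Of the glycolysis and hypoxia list, 4 of 27 rose and 1 fell, a share of 18.5% that is near the background of 17.8%.

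**Figure D3:**
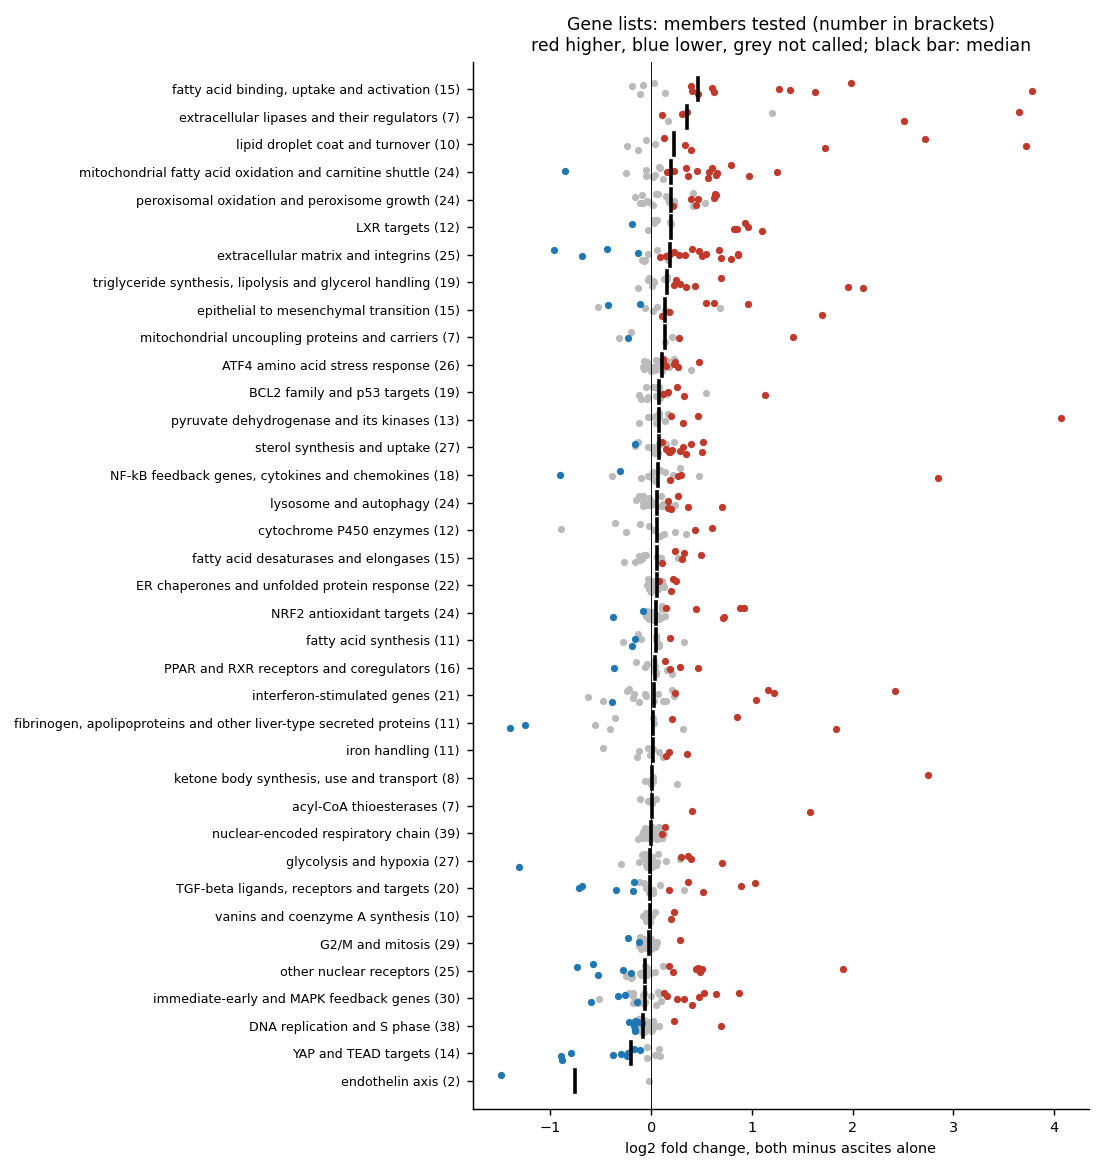
Every tested member of the 37 gene lists by its log2 fold change (combination minus ascites alone), red called higher, blue lower, grey not called, with a black bar at each list's median. Lists of fatty acid binding, lipases and lipid droplets lie furthest right, and the YAP and TEAD targets and the 2 endothelin genes furthest left.

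The genes that fell most were of low abundance. NYAP2, a neuronal signalling adaptor, gave 4.13, 3.75 and 4.51 CPM in ascites alone and 0.88, 1.19 and 1.35 CPM in the combination (log2 fold change -1.89, SE 0.24, edgeR adjusted p 9.8e-08). EDN1, the vasoconstrictor endothelin 1, gave 1.71, 2.19 and 1.82 and 0.469, 1.02 and 0.591 CPM (log2 fold change -1.49, SE 0.33, edgeR adjusted p 8.0e-04). EDN1 values are near 1 CPM, its groups did not overlap, and none of EDN1, HGD (from 2.21 to 0.874 CPM), TINAG (from 2.95 to 1.27 CPM) and C5 (from 4.93 to 2.31 CPM) passed the test against a 1.5-fold change. FGB and FGA, chains of fibrinogen, were lower (log2 fold changes -1.40 and -1.25), yet APOA2 rose from 3.03 to 10.9 CPM. The FGA call was lost without combination replicate 3 (edgeR adjusted p 0.0906) and in 3 of the other 5 fits without 1 library. KLRC3 and KLRC2, lectin-like receptors known from natural killer cells, had log2 fold changes of -1.70 and -1.20 and were called lower. They share 63.6% and 30.4% of their 50-base stretches, so their separate values are uncertain.

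Other lists were smaller in effect. Of 24 lysosome and autophagy genes, 6 rose and none fell, a share of 25% against the background of 17.8%. Without combination replicate 3, 5 rose, and with upper-quartile scaling or DESeq2, 4 rose. Of 11 iron genes, 3 rose (27.3%), while without combination replicate 3, 3 rose and 1 fell. Of 19 BCL2 family and p53 genes, 5 rose and none fell (26.3%). Without combination replicate 3, 4 rose, and the call for BID was lost (edgeR adjusted p 0.119). Of 10 vanin and coenzyme A synthesis genes, 2 rose (PANK3 and PPCS), near the background. The PPCS call was lost without ascites replicate 2 or 3 and without combination replicate 2 or 3, leaving 1 of 10.

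Some of the strongest risers belonged to no lipid list. LRRC31 gave 0.926, 1.17 and 0.606 CPM in ascites alone and 9.502, 11.04 and 11.4 CPM in the combination (log2 fold change 3.56, SE 0.22, edgeR adjusted p 3.9e-15). PHLDA3, a p53-responsive inhibitor of AKT, rose from 1.09 to 8.49 CPM, KCNK3, a potassium channel, from 0.619 to 4.16 CPM, and BRINP2 from 0.356 to 3.05 CPM. KRT7, a simple epithelial keratin, and AHNAK, a giant scaffold protein, gained much CPM with modest folds (1.48 and 1.39). For AHNAK the call was lost when only the 6 libraries were fitted.

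The drug effect was then set against the effect without ascites, where 2199 genes (17.6%) were called between bezafibrate and DMSO. The 2 comparisons share no library but share 1 estimate of the spread. Of the 2214 genes called with ascites, 1577 were also called without it, 1576 of them in the same direction, and of the other 637 the sign was the same for 597. PDK4 had a log2 fold change of 4.07 without and 4.07 with ascites, a difference of 0.00 (SE 0.12). In the libraries without ascites it stood at 8.52, 7.86 and 8.41 CPM with DMSO and 137, 140 and 139.7 CPM with bezafibrate, so both drug groups were high. CDH1 stood at 19.02, 18.3 and 18.5 and 55.9, 49.8 and 54.1 CPM in the same 2 groups and CCN2 at 129.6, 139.9 and 138 and 67.8, 70.3 and 70.4 CPM, each moving the way it did with ascites. For ANGPTL4 the difference was 0.05 (SE 0.081), for PLIN2 -0.01 (SE 0.043) and for CPT1A 0.00 (SE 0.074). Other genes differed more between the media: 0.18 for CDH1 (SE 0.1), 0.18 for HR (SE 0.076), 0.17 for CCN2 (SE 0.06) and 0.30 for ANKRD1 (SE 0.094).

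The test of that difference called 0 of 12470 genes in edgeR (0%), with 445 at an unadjusted p under 0.05 and a lowest adjusted p of 0.980. DESeq2 called 1 gene and limma-voom 0. A miss does not show that the effects are equal: the differences of scarce genes have large errors, such as LRRC31 at 0.85 (SE 0.37) and BRINP2 at 1.04 (SE 0.51). The lowest unadjusted p belonged to RAB43, with a log2 fold change of 0.87 with ascites and -0.06 without. RAB43 shares 85.4% of its 50-base stretches with the read-through gene ISY1-RAB43, so that value depends on how reads were divided. Among lists, mitochondrial oxidation gave 14 rises and 1 fall with ascites and 13 rises and no fall without it. Other lists differed more in their calls. Peroxisomal genes gave 7 rises with ascites and 11 without it. LXR targets gave 5 rises and 1 fall with ascites and 8 rises and no fall without it. Mitosis genes gave 2 falls with ascites and 6 without it. Such differences between list counts were not tested. YAP and TEAD targets gave 9 falls with ascites and 10 without, but 4 of the 14 (CCN1, CCN2, ANKRD1 and LATS2) had an unadjusted p under 0.05 for the difference, the most of any list, against 445 of 12470 genes. All 4 had the less negative log2 fold change with ascites: -0.80 against -0.97 for CCN2, -0.88 against -1.18 for ANKRD1, -0.38 against -0.53 for CCN1 and -0.04 against -0.29 for LATS2. None passed adjustment (edgeR adjusted p 0.999 for CCN2).

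**Figure D4:**
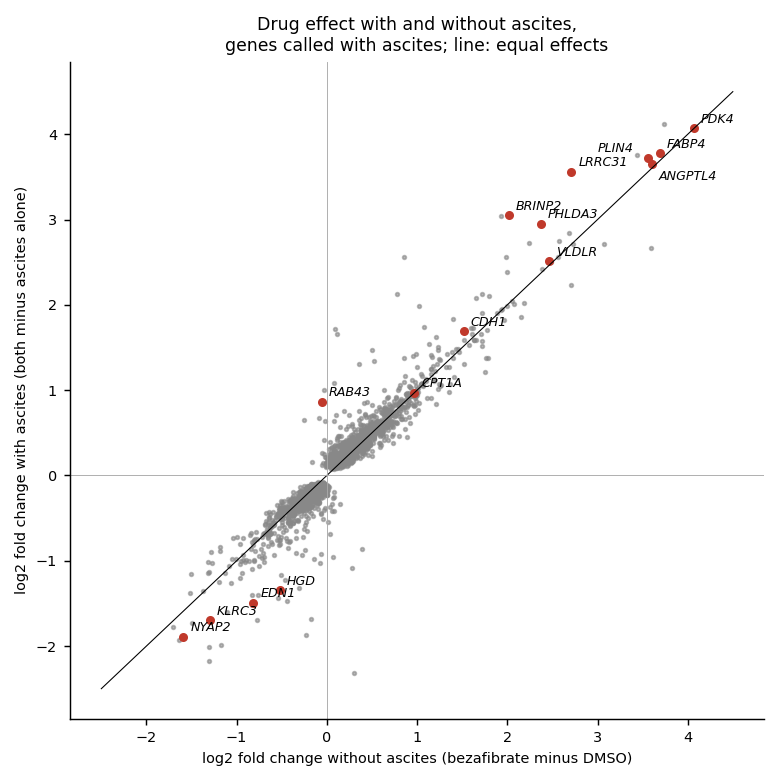
Each point is a gene called in the combination against ascites alone: its log2 fold change without ascites (bezafibrate minus DMSO) against that with ascites, with named genes in red and a line of equal effects. The points follow the line, and RAB43 and HGD lie off it without passing the test of the difference.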

How the data were processed

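RNA-seq counts of 12 CAOV3 libraries were used. The authors deposited whole-number counts for 19677 genes per library. Per the submitters' processing notes, Trimmomatic 0.39, STAR 2.7.9a, RSEM 1.3.3, DESeq2 1.28.1 and GRCh38 were used; strandedness, annotation and rounding are not given in the sources used here, so overlapping or near-identical genes are uncertain. Groups came from the titles. edgeR 4.0.16 (R 4.3.3) kept 12470 genes (filterByExpr, minimum count 10), scaled by TMM and fitted all 12 libraries with 1 mean per group (8 residual degrees of freedom). Genes with a quasi-likelihood p under 0.05 after Benjamini-Hochberg adjustment were called. SEs are the absolute log2 fold change over the square root of F, and 95% intervals reach 1.96 SEs to either side. They use the normal distribution and not the degrees of freedom of the F test, so they can be too narrow. CPM are TMM-scaled. On simulated data, 82 of 100 genes changed 1.5-fold and 88 of 100 changed 2-fold were recovered, with 10 false calls. Those counts were drawn with the dispersions fitted here and equal group means, apart from the changed genes in the combination. They held far fewer changes than the real data and no library that stood apart, so they do not measure false calls among the real ones.

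The members and the 37 gene lists (814 genes, 670 tested, 236 called) were chosen with earlier results of these data known. Named genes are the 10 largest rises and falls with at least 1 CPM and no overlap, the 5 largest changes in CPM, up to 4 leading and 3 opposing members per list, 11 fixed genes and 6 by interaction p. Others were chosen after their values were seen, and some genes are not reported here. Alternatives changed scaling, filter, tool, threshold, replicate block and libraries.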

Additional observations from a re-analysis of the deposited data

How the results depend on the processing

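The 2214 calls became 1742 to 2188 when 1 of the 6 libraries was left out and 1743 (DESeq2) to 2363 (no filter) over the other scalings, filters and tools. They became 1475, with 542 lower, at an adjusted p under 0.01, and 164, 144 higher and 20 lower, against a 1.5-fold change. No called gene changed sign in any of these fits. Of the calls, 1335 held in all 6 fits without 1 library and in all 8 other full-library settings, as did 125 of the 165 called at 2-fold or more. Rises made up 58.9% of calls, but 49.3% under upper-quartile scaling and 49.96% with library totals only. The test of the difference between media called 36 genes with no filter, 1 with DESeq2, 1 with the replicate block and 0 to 3 when 1 library was left out. Fitting only the 6 libraries gave 1837 calls. With the replicate block, 2154 genes were called (1266 higher, 888 lower). Without combination replicate 3, higher and lower calls became 14 and 5 for matrix and integrin genes and 10 and 1 for sterol genes. They became 7 and 6 for other nuclear receptors, 10 and 4 for immediate-early genes, and 5 and 2 for both NRF2 targets and NF-kB genes. Same-numbered ascites and combination libraries correlated at -0.0861 to 0.0204 in their deviations, and other-numbered ones at -0.0319 to 0.102. No pairing by number was seen, but such values cannot show whether same-numbered libraries were prepared together. List medians changed sign for desaturases and elongases with no filter (-0.0538), fatty acid synthesis without combination replicate 1 (-0.0234; highest 0.0626 over fits without 1 library), interferon genes without ascites replicate 3 (-0.0276) or combination replicate 2 (-0.00315; highest 0.0526), and immediate-early genes without ascites replicate 3 (0.0203; lowest -0.0823); the cause was not tested. Of 219 called genes named in the text or by the rule, 186 kept their call in those fits. With 3 libraries a group, small changes and genes near 1 CPM are the least certain.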

Other observations

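Genes outside the lists, chosen after their values were seen, included further antiviral genes. Of 4 tested guanylate-binding proteins, interferon-induced GTPases, 3 rose in the combination: GBP4 from 0.504 to 2.87 CPM (log2 fold change 2.50, SE 0.32, edgeR adjusted p 1.0e-07), GBP3 from 11.3 to 23.1 CPM and GBP2 from 24.5 to 49.5 CPM, while GBP1 did not pass (log2 fold change 0.89, edgeR adjusted p 0.088). All 3 tested APOL genes rose, led by APOL6, from 23.98 to 67.2 CPM (log2 fold change 1.48, SE 0.063, edgeR adjusted p 1.2e-20). DDX60, an antiviral helicase, rose from 2.997 to 8.904 CPM. Of 14 tested genes of the immunoproteasome and antigen presentation, 10 rose and none fell, including PSMB9 from 0.631 to 1.68 CPM and TAP1 from 17.2 to 22.5 CPM. The share called among all genes tested was 17.8%, and these families were picked by their values. PSMB8 (edgeR adjusted p 0.048) kept its call in 1 of the 6 fits without 1 library and in 2 of 8 other full-library settings. The TAP1 call was lost without ascites replicate 3 and without combination replicate 2.

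The genes that follow were likewise chosen after their values were seen and form no list. The trefoil factors, mucus-stabilising peptides, were all 3 higher: TFF1 from 49.96 to 101 CPM (log2 fold change 1.02, SE 0.068, edgeR adjusted p 5.1e-11), TFF2 from 8.5 to 24.6 CPM (log2 fold change 1.53, SE 0.093, edgeR adjusted p 6.3e-16) and TFF3 by less than 1.5-fold, a call lost without ascites replicate 3 and without combination replicate 1. MUC5AC, a gel-forming mucin, rose from 2.04 to 3.99 CPM. The hedgehog ligands SHH and IHH rose from 40.1 to 94.7 CPM (log2 fold change 1.24, SE 0.055, edgeR adjusted p 5.0e-20) and from 6.05 to 19.9 CPM (log2 fold change 1.73, SE 0.11, edgeR adjusted p 5.6e-15). PCK1, which controls glucose synthesis, rose from 3.299 to 14.02 CPM (log2 fold change 2.08, SE 0.14, edgeR adjusted p 1.6e-14), and TLR4, the endotoxin receptor, from 37.3 to 102 CPM (log2 fold change 1.45, SE 0.06, edgeR adjusted p 2.8e-19). Of 11 tested keratins, 2 rose, KRT7 and KRT19, and 1 fell, KRT4. TNFRSF11B, the decoy receptor osteoprotegerin, fell from 44.8 to 22.3 CPM (log2 fold change -1.01, SE 0.066, edgeR adjusted p 5.0e-15), and PDGFRA, a growth factor receptor, from 43.7 to 22.3 CPM.

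Combination replicate 3, the library that stood apart, differed from the mean of replicates 1 and 2 by more than 0.75 on the log2(CPM + 0.5) scale in 19 of 10407 genes with at least 5 CPM. Near-identical pairs were among them, in opposite directions. FAM156A was at 40.4, 42.7 and 15.6 CPM in combination replicates 1, 2 and 3, FAM156B at 0.587, 1.53 and 16.6 CPM, and their sum at 41.0, 44.2 and 32.3 CPM. In ascites alone FAM156B was at 18.7, 12.1 and 16.6 CPM, so for this gene replicates 1 and 2 were the libraries that differed. SLX1A was at 27.8, 23.9 and 14.2 CPM, SLX1B at 5.69, 6.20 and 10.4 CPM, and their sum at 33.5, 30.1 and 24.6 CPM. SLX1B also varied in ascites alone, at 4.98, 9.76 and 2.76 CPM. Between combination replicates 1 and 2, SERF1A went from 11.6 to 2.12 CPM and SERF1B from 3.23 to 13.1 CPM. Uneven division within such pairs was therefore not particular to replicate 3.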
